A study of Mus musculus with 4 samples.

Results

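Proliferating nuclei were those of aortic tissue that held transcripts of several genes of cell division at once. A nucleus was counted among them when at least 300 genes were detected, at most 10% of its unique molecular identifiers (UMIs, each a separately counted RNA molecule) were mitochondrial, and at least 3 of 7 marker genes had a UMI. The markers were Mki67, Top2a, Cenpf, Aspm, Kif11, Knl1 and Anln, and no marker of a cell lineage was used. The rule chose 369 of the 107709 nuclei that passed the filter. The members were therefore chosen by measured values of these genes, so the levels of the markers, and every contrast of proliferating with other nuclei, are given as a description. Nuclei came from mice with a CA1 knock-in on an ApoE-/- background, a genotype that every group shared, untreated mice included. There were 4 groups with 1 library each. MTZ-simultaneous mice received high-fat food and, at the same time, MTZ, which the labels spell methoxazolamide and call an inhibitor of CA1. MTZ-after mice received high-fat food and were given MTZ once atherosclerosis was established. High-fat mice received the food alone, and untreated mice received no treatment. CA1, mouse gene Car1, encodes a cytosolic carbonic anhydrase, and ApoE is a lipoprotein ligand whose absence leads to plaques in mice. The age and number of mice behind each library and the promoter or cell type driving the knock-in were not given in the sources used here.

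A dividing cell copies its DNA in S phase and separates the copies in mitosis, and the genes that serve these steps are transcribed in waves. Genes of replication rise first, under E2F factors, and genes of the spindle, kinetochore and cytokinesis rise later, under the B-Myb and FoxM1 factors. Mki67 encodes the coat protein of mitotic chromosomes, Top2a the topoisomerase that untangles sister DNA, Cenpf a kinetochore and nuclear matrix protein, Aspm a spindle pole protein, Kif11 the motor that pushes spindle poles apart, Knl1 the kinetochore scaffold, and Anln the scaffold of the contractile ring. In lesions of ApoE-deficient mice, macrophages are known to divide in place, and division of smooth muscle, endothelial and adventitial cells is known from injured arteries.

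The matrices held 37962370 UMIs in MTZ-simultaneous, 31517272 in MTZ-after, 50358151 in high-fat and 69201159 in untreated. The filter took out 74, 23, 98 and 74 nuclei in that order. Each group was a single library, so no difference could be set against variation between animals, and no test was made. Intervals in parentheses are exact 95% intervals and cover counting error only. Apoe, the gene disrupted in all groups, stood at 11.0, 12.3, 6.83 and 5.49 CPM, a gene's counts scaled by the total of the summed nuclei, in the proliferating nuclei of MTZ-simultaneous, MTZ-after, high-fat and untreated. Between pairs of libraries, 0.616% to 1.34% of the barcodes of the smaller one also occurred in the larger. Of the proliferating nuclei, 15 carried a barcode found in another library, and 0 barcodes were shared between proliferating nuclei.

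The promoters of the markers are shown because mitotic genes are known for a pair of short promoter elements. These are the cell cycle genes homology region, with the letters TTTGAA, which is bound by MuvB complexes with B-Myb and FoxM1, and the CCAAT box, bound by NF-Y. The windows cover 250 bases before to 50 bases after the annotated start and were taken from RefSeq on GRCm38.p6, written 5′ to 3′ on the gene's strand. Capitals mark TTTGAA or its reverse complement TTCAAA, and CCAAT or its reverse complement ATTGG. The 4 printed are Mki67 (chr7:135716330-135716629, minus strand), Top2a (chr11:99024140-99024439, minus strand), Kif11 (chr19:37376132-37376431, plus strand) and Knl1 (chr2:119046869-119047168, plus strand).
Mki67: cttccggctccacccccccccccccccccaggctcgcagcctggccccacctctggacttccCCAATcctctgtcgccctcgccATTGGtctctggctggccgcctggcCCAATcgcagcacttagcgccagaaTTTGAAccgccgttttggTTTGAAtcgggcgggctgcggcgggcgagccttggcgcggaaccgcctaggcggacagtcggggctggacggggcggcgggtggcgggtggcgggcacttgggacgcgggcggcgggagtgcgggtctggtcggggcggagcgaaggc
Top2a: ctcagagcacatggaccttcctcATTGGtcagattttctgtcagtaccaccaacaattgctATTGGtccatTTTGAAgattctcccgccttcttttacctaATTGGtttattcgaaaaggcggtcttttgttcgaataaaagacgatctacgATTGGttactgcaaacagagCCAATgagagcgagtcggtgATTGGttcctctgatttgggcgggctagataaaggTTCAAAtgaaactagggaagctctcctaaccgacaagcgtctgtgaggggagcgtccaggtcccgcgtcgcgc
Kif11: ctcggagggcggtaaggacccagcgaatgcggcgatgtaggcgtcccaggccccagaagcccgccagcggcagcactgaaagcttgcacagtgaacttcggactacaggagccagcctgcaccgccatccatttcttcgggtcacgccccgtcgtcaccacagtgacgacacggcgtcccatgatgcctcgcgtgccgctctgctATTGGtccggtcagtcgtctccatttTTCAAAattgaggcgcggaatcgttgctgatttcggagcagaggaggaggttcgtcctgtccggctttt
Knl1: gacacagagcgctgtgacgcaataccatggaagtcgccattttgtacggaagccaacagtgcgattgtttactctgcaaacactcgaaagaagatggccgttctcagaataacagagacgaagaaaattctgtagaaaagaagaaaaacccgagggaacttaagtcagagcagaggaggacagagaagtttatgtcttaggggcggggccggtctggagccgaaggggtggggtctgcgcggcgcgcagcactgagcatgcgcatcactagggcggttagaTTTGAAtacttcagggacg
All 7 markers matched a window, and 7 of 7 held TTTGAA on either strand, against 17.9% of the 32851 windows of that length in the table. CCAAT on either strand was in 5 of 7 markers, all but Knl1 and Anln, against 37.4% of windows. TTTAAA, a variant of the same element that reads alike on both strands, was in 2 of 7 (Cenpf and Aspm), against 13.2% of windows. In Mki67 the TTTGAA letters began 116 and 98 bases before the start, and its 3 CCAAT letters began 188, 166 and 141 bases before it. Top2a held 6 CCAAT matches and 2 TTTGAA matches. Knl1 had a single TTTGAA match, 31 bases after the start. Among genes of the lists used below, TTTGAA was in 14 of 17 promoters of spindle motors and microtubule binders (82.4%) and in 1 of 17 promoters of DNA synthesis and nucleotide supply (5.88%). The other lists lay between: 5 of 9 for condensin and cohesin, 6 of 11 for cytokinesis, 6 of 12 for mitotic kinases, 7 of 15 for cyclins and CDKs, 6 of 14 for kinetochore genes, 4 of 9 for chromatin copying, 4 of 13 for origin licensing, 3 of 10 for the anaphase promoting complex, 3 of 11 for inhibitors, 3 of 15 for fork repair and 1 of 7 for D cyclins. These matches describe letters in a window and are not measured binding.

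Top2a was the marker most often found, with a UMI in 76.7% of proliferating nuclei, and Aspm the least, in 38.8%. The values for Knl1 and Anln were 61.5% each, for Kif11 60.7%, for Mki67 56.9% and for Cenpf 46.3%. Top2a and Knl1 were the pair most often found together, in 177 of the 369 nuclei, and Cenpf and Aspm the pair least often found together, in 78. Of the 107709 filtered nuclei, 100634 held none of the markers, 6018 held 1 and 688 held 2. Among the members, 177 held 3 markers, 87 held 4, 49 held 5, 31 held 6 and 25 held all 7. Just outside the threshold, nuclei with 2 markers had a median of 1700 UMIs in MTZ-simultaneous, 1652 in MTZ-after, 1650 in high-fat and 2989 in untreated. Just inside it, nuclei with 3 markers had a median of 2717, 1641, 2048 and 2902 UMIs. Of the 25 nuclei with all 7 markers, 3 came from MTZ-simultaneous, 0 from MTZ-after, 4 from high-fat and 18 from untreated. The untreated library thus held most of the fully marked nuclei, and its proliferating nuclei were also the deepest: the median was 2768 UMIs in MTZ-simultaneous, 2093 in MTZ-after, 2787 in high-fat and 4863 in untreated.

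Summed over the proliferating nuclei of a library, Mki67 reached 220 CPM in MTZ-simultaneous, 343 in MTZ-after, 173 in high-fat and 247 in untreated, with 8.32, 6.17, 10.8 and 2.36 CPM in the other nuclei of the same libraries. Top2a reached 279, 417, 313 and 374 CPM in the same order, with 10.1, 8.28, 15.6 and 3.19 CPM in the other nuclei. Cenpf stood at 134, 110, 159 and 199 CPM and Aspm at 108, 110, 125 and 124 CPM. Kif11 stood at 184, 282, 219 and 264 CPM, Knl1 at 218, 294, 207 and 262 CPM, and Anln at 195, 405, 220 and 294 CPM. For 5 of the markers the level in proliferating nuclei was highest in MTZ-after, and for none was it highest in MTZ-simultaneous. The MTZ-after sums rest on 29 nuclei and 9 to 34 counts a gene, and a single nucleus supplied 18.4% of their 81551 UMIs. In the other nuclei, in contrast, each of the 7 markers was highest in high-fat and lowest in untreated.

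**Figure D1:**
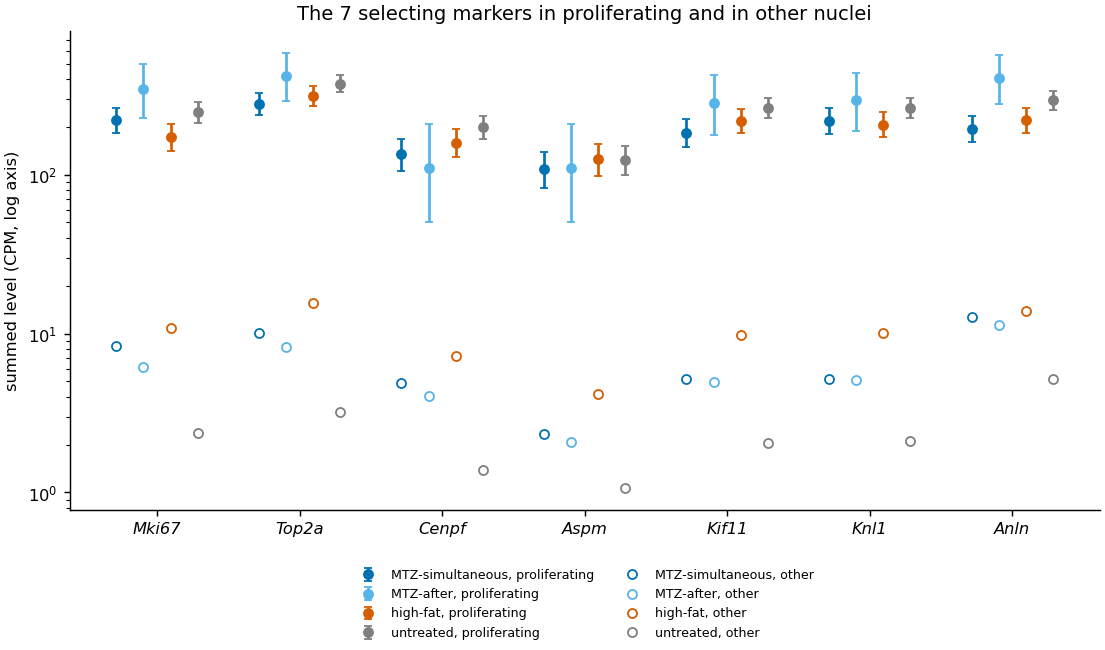
Level of the 7 markers (CPM, log axis) summed over proliferating nuclei (filled points, bars are exact 95% counting intervals) and over other nuclei (open points) of the 4 libraries. In proliferating nuclei the points lie between 108 and 417 CPM, and in other nuclei between 1.07 and 15.6 CPM, with the untreated library lowest for every marker.

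Proliferating nuclei made up 0.540% of the nuclei of MTZ-simultaneous (104 of 19261, 0.441 to 0.654%), 0.103% of MTZ-after (29 of 28093, 0.0691 to 0.148%), 0.366% of high-fat (139 of 38016, 0.307 to 0.432%) and 0.434% of untreated (97 of 22339, 0.352 to 0.529%). The MTZ-after share was the lowest, and its interval did not overlap that of any other library. The share in high-fat was 0.842 times that in untreated (0.645 to 1.10), an interval that included 1. It left out 1 without surrounding tissue, at 0.567 (0.422 to 0.766), and without the marker Cenpf, 0.631 (0.472 to 0.845), Kif11, 0.715 (0.5295 to 0.968), or Knl1, 0.729 (0.541 to 0.986). The MTZ-after share was 0.282 times the high-fat share (0.182 to 0.424), and the MTZ-simultaneous share was 1.48 times the high-fat share (1.13 to 1.92). These 2 comparisons share the high-fat library. The high-fat against untreated ratio depended on how many markers were asked for: it was 1.61 (477 against 174 nuclei) with at least 2 markers and 0.490 (55 against 66 nuclei) with at least 4.

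Depth moved with the call. Other nuclei had a median of 1413 UMIs in MTZ-simultaneous, 827 in MTZ-after, 967 in high-fat and 2021 in untreated, so proliferating nuclei were deeper than the rest in every library. Among nuclei with at least 4000 UMIs, 2.29% were proliferating in MTZ-simultaneous, 0.967% in MTZ-after, 4.46% in high-fat and 1.10% in untreated. Among nuclei under 1000 UMIs the shares were 0.124, 0.0280, 0.0601 and 0.107%. When each nucleus was thinned at random to 500 UMIs, which left out 0 nuclei, at least 2 markers remained in 0.286% of MTZ-simultaneous nuclei (55), 0.114% of MTZ-after (32), 0.229% of high-fat (87) and 0.210% of untreated (47). At equal depth the MTZ-after share was still the lowest, at 0.498 times that of high-fat. Its interval (0.0779 to 0.161%) now overlapped that of untreated (0.155 to 0.280%), though not those of high-fat and MTZ-simultaneous. The intervals of the other libraries overlapped one another. With at least 3 markers after thinning, 11, 3, 14 and 12 nuclei were left.

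**Figure D2:**
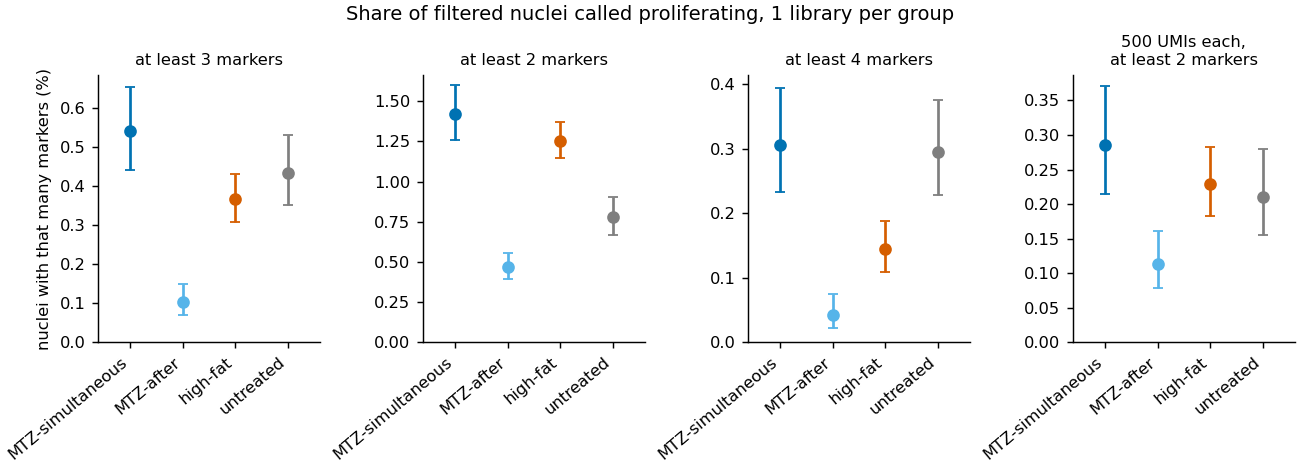
Share of filtered nuclei (%) with at least 3, at least 2 and at least 4 of the 7 markers, and with at least 2 after thinning each nucleus to 500 UMIs, in 1 library per group; bars are exact 95% counting intervals. MTZ-after is lowest in all panels, at 0.103, 0.470, 0.0427 and 0.114%, while the order of high-fat and untreated differs between panels.

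In 3 of the 4 libraries most marker transcripts lay outside the proliferating nuclei. Over all filtered nuclei the 7 markers together made up 67.4 CPM in MTZ-simultaneous, 46.9 in MTZ-after, 87.1 in high-fat and 35.8 in untreated. The high-fat level was 2.44 times the untreated level (2.32 to 2.56), while the interval of the ratio of their shares of proliferating nuclei included 1. MTZ-after was at 0.538 times the high-fat level (0.507 to 0.571) and MTZ-simultaneous at 0.774 times (0.736 to 0.813). Of the marker UMIs, 28.6% in MTZ-simultaneous, 10.8% in MTZ-after, 18.9% in high-fat and 52.0% in untreated were in proliferating nuclei. Nuclei with a single marker held 55.9, 73.2, 63.8 and 41.0% of them. In nuclei outside the proliferating set the markers stood at 48.8, 41.9, 71.5 and 17.3 CPM, and the high-fat level there was 4.12 times the untreated level (3.86 to 4.41).

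Outside the proliferating nuclei, the level was higher in high-fat than in untreated in several classes of nuclei, surrounding fat among them. Among macrophage-like nuclei that were not proliferating, the markers stood at 75.3 CPM in high-fat and 33.0 CPM in untreated. Endothelial-like nuclei had 40.5 CPM in high-fat and 12.0 CPM in untreated, and adipocyte-like nuclei 64.8 CPM in high-fat and 28.2 CPM in untreated. Brown-adipocyte-like nuclei had 34.7 CPM in high-fat and 13.2 CPM in untreated. Smooth-muscle-like nuclei had 54.9 CPM in high-fat and 43.8 CPM in untreated, and lymphatic-endothelial-like nuclei 45.3 and 17.0 CPM, with overlapping intervals in both classes. Droplet libraries carry free RNA that is counted in every nucleus, and its part in these levels was not tested.

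**Figure D3:**
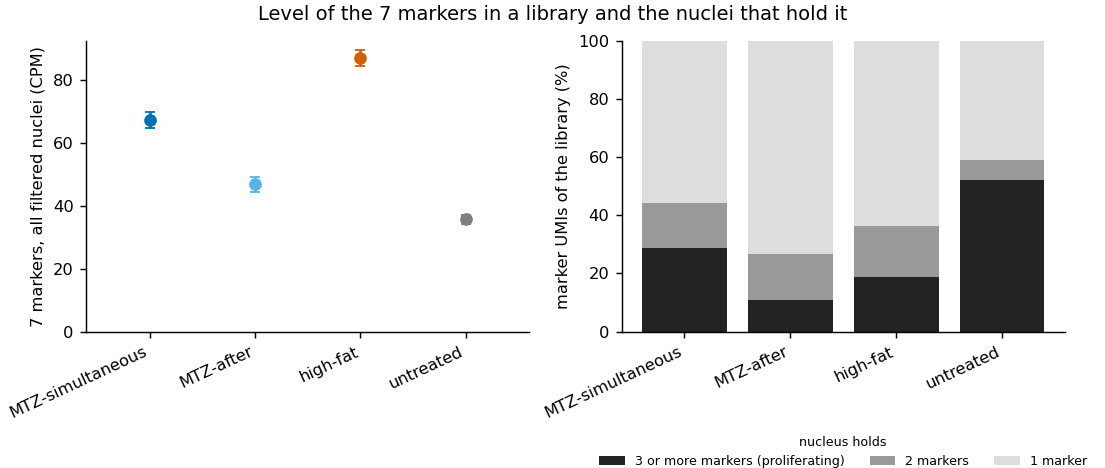
Left, summed level of the 7 markers over all filtered nuclei of each library (CPM, bars are exact 95% counting intervals); right, percentage of those marker UMIs held by nuclei with 3 or more, 2 and 1 of the markers. High-fat has the highest level, 87.1 CPM, with 18.9% of it in proliferating nuclei, and untreated the lowest, 35.8 CPM, with 52.0% in proliferating nuclei.

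The rest of the cell cycle was described with 13 lists of genes from which the 7 markers were left out. A gene was called higher in a sum of nuclei when its CPM was at least 2-fold above that of the compared sum and it held at least 50 counts. By this rule proliferating nuclei were higher than other nuclei for 111 of 2820 genes that held enough counts in MTZ-simultaneous (3.94%), 10 of 153 in MTZ-after (6.54%), 56 of 2888 in high-fat (1.94%) and 275 of 3655 in untreated (7.52%). For each list the median over its genes of the log2 CPM ratio of proliferating over other nuclei is given, with 1 CPM added to both, over genes with at least 10 counts in the sums together. Over all measured genes this median was -0.19 in MTZ-simultaneous, -0.53 in MTZ-after, -0.13 in high-fat and -0.09 in untreated. Of the 13 lists, 10 had a median above 1 in every library, and the lists of the anaphase promoting complex, of D cyclins and of inhibitors did not. In MTZ-after, where the members hold few counts, thinning to 500 UMIs left 6 lists above 1 and turned the medians of licensing, DNA synthesis, mitotic kinases and the anaphase promoting complex below 0.

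The largest medians were those of the genes that build and drive the spindle. The 19 spindle motors and microtubule binders had a median of 4.01 in MTZ-simultaneous, 4.15 in MTZ-after, 3.45 in high-fat and 4.96 in untreated, and all 19 were above a ratio of 1 in each library. All genes of the list with enough counts were called higher, 4 of 4, 0 of 0, 8 of 8 and 15 of 15 in the same order. Kifc1, a motor that bundles spindle microtubules, stood at 44.1 CPM in proliferating nuclei of MTZ-simultaneous, 73.6 in MTZ-after, 51.3 in high-fat and 54.9 in untreated, with 1.56, 1.53, 2.68 and 0.673 CPM in other nuclei. Hmmr, which binds microtubules and hyaluronan, stood at 60.6, 49.1, 63.2 and 82.4 CPM. Tpx2, the activator of Aurora A on the spindle, stood at 77.1, 98.1, 142 and 166 CPM. Kif20a, a motor of the central spindle, had the lowest bound of the list, with 9.18, 12.3, 20.5 and 31.6 CPM against 2.01, 2.93, 2.52 and 1.11 CPM in other nuclei.

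Kinetochore genes, which attach chromosomes to the spindle, had medians of 3.55, 3.66, 3.02 and 4.15 in MTZ-simultaneous, MTZ-after, high-fat and untreated. Cenpe, the kinetochore motor, had a UMI in 33.1% of proliferating and 0.718% of other nuclei, and stood at 106, 135, 113 and 137 CPM in proliferating nuclei. Ndc80, the microtubule-binding subunit of the outer kinetochore, stood at 75.2, 85.8, 44.4 and 61.8 CPM. Sgo2a, which guards centromeric cohesion, stood at 40.4, 85.8, 51.2 and 65.9 CPM. Spc24, a partner of Ndc80, was at the low end, with 14.7, 12.3, 10.3 and 19.2 CPM. Mitotic kinases and checkpoint genes had medians of 3.30, 3.40, 3.08 and 4.23. Bub1, a checkpoint kinase, stood at 56.9, 49.1, 44.4 and 71.4 CPM in proliferating nuclei, with 1.72, 1.53, 3.85 and 0.571 CPM in other nuclei. Birc5, which encodes survivin of the chromosomal passenger complex, stood at 67.9, 73.6, 58.1 and 71.4 CPM, and Ttk, the checkpoint kinase Mps1, at 36.7, 61.3, 42.7 and 54.9 CPM. Nek2, a centrosome kinase, had 11, 0, 8 and 18 counts.

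Genes of cytokinesis and the centriole had medians of 3.36, 3.27, 3.22 and 4.90. Diaph3, a formin that nucleates actin, was the most widely found of the named list genes, with a UMI in 68.3% of proliferating and 4.22% of other nuclei. Its level was 532 CPM in MTZ-simultaneous, 417 in MTZ-after, 513 in high-fat and 792 in untreated proliferating nuclei, against 28.9, 28.5, 44.8 and 18.5 CPM in other nuclei. Iqgap3, a scaffold of the cell cortex, stood at 66.1, 98.1, 42.7 and 67.3 CPM, and Shcbp1, a partner of the central spindle, at 40.4, 73.6, 41.0 and 54.9 CPM. Condensin and cohesin genes, which fold and hold chromosomes, had lower medians of 1.82, 2.39, 1.31 and 2.78. Within that list the condensin subunit Ncapg stood at 44.1, 36.8, 37.6 and 57.7 CPM against 1.96, 2.39, 3.30 and 0.820 CPM in other nuclei. Smc2, a condensin ATPase, stood at 84.4, 110, 73.5 and 96.1 CPM against 16.5, 15.4, 20.1 and 9.88 CPM. Ncapd3, a condensin II subunit, differed least, with 82.6, 12.3, 58.1 and 96.1 CPM against 34.6, 28.8, 27.2 and 32.7 CPM, so that in MTZ-after, on 1 count, it was not higher.

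Cyclins, CDKs and the transcription factors of the cycle had medians of 2.45, 2.84, 1.90 and 3.18. Cdk1, the kinase that starts mitosis, stood at 33.0, 49.1, 49.5 and 45.3 CPM in proliferating nuclei and at 2.23, 1.43, 3.52 and 0.717 CPM in other nuclei. Ccnf, the F-box protein cyclin F, stood at 66.1, 49.1, 64.9 and 61.8 CPM. Melk, a kinase expressed in dividing cells, stood at 40.4, 73.6, 32.5 and 59.1 CPM. Cdk2, the kinase of S phase, was nearly level in high-fat, with 18.8 CPM in proliferating and 20.6 CPM in other nuclei, and had 0 counts in MTZ-after. The anaphase promoting complex, which marks cyclins for destruction, had medians of 0.43, 0.56, 0.53 and 0.50, and 0 of its 2 genes with enough counts were called higher in MTZ-simultaneous, high-fat or untreated. Within it the substrate-dedicated enzyme Ube2c stood apart at 23.9, 49.1, 41.0 and 48.1 CPM against 2.44, 1.69, 2.94 and 0.834 CPM, while the core subunit Cdc27 stood at 162, 184, 169 and 217 CPM against 130, 117, 125 and 167 CPM.

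Genes of S phase were higher too, by smaller medians. Origin licensing and firing had medians of 1.83 in MTZ-simultaneous, 1.74 in MTZ-after, 1.04 in high-fat and 2.14 in untreated, and none of its 17 genes reached 50 counts in proliferating nuclei. Mcm10, which loads the replication fork, stood at 27.5, 36.8, 15.4 and 27.5 CPM against 2.87, 2.93, 2.36 and 1.13 CPM in other nuclei. Dbf4, the activator of the Cdc7 kinase, stood at 45.9, 49.1, 46.1 and 42.6 CPM, and Cdt1, the licensing factor, at 12.8, 49.1, 13.7 and 12.4 CPM. Mcm7, a subunit of the replicative helicase, had the lowest bound, at 12.8, 0, 15.4 and 9.61 CPM against 10.4, 8.69, 7.92 and 7.68 CPM. DNA synthesis and nucleotide supply had medians of 1.89, 1.21, 1.13 and 2.26. Rrm2, the regulated subunit of ribonucleotide reductase, stood at 14.7, 36.8, 35.9 and 31.6 CPM against 2.12, 1.75, 2.38 and 0.556 CPM. Rrm1, its large subunit, stood at 62.4, 98.1, 51.2 and 74.2 CPM against 17.6, 15.6, 13.7 and 12.7 CPM, and Tyms, thymidylate synthase, at 55.1, 73.6, 39.3 and 61.8 CPM.

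Chromatin copying had medians of 2.10, 2.09, 1.54 and 2.50. Its histone chaperone Asf1b stood at 36.7, 61.3, 22.2 and 24.7 CPM against 2.39, 2.13, 3.58 and 2.09 CPM in other nuclei. Ezh2, the H3K27 methyltransferase, had a UMI in 54.5% of proliferating and 9.12% of other nuclei and stood at 246, 282, 263 and 321 CPM against 59.99, 61.2, 69.6 and 56.9 CPM. Atad2, a bromodomain ATPase, stood at 211, 147, 144 and 249 CPM. Fork repair and homologous recombination had the highest medians of the S-phase lists, 2.76, 2.50, 2.25 and 3.47. Brip1, a helicase that partners Brca1, had a UMI in 33.1% of proliferating and 1.66% of other nuclei. Its level was 143, 135, 87.1 and 159 CPM against 10.4, 12.3, 14.3 and 6.72 CPM. Clspn, the fork protein claspin, stood at 33.0, 98.1, 44.4 and 63.2 CPM, and Polq, a polymerase of end joining, at 40.4, 85.8, 34.2 and 68.7 CPM.

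The G1 and quiescence lists had medians below 1, though above that of all genes in every library. D cyclins and G1 kinases had medians of 0.05, 0.27, 0.19 and 0.71, and 1 of 3, 0 of 0, 1 of 3 and 1 of 3 genes with enough counts were called higher in MTZ-simultaneous, MTZ-after, high-fat and untreated. The gene called was Rbl1, the pocket protein p107, at 91.8, 85.8, 88.8 and 82.4 CPM against 24.95, 29.9, 32.4 and 17.7 CPM. Ccnd3, a D cyclin, stood at 198, 221, 137 and 87.9 CPM against 210, 171, 157 and 139 CPM, above the other nuclei in MTZ-after and below them in the rest. Cycle inhibitors had medians of 0.10, -0.07, 0.20 and 0.43. Cdkn2c, the inhibitor p18, was above other nuclei in each library, at 31.2, 73.6, 64.9 and 63.2 CPM against 17.0, 19.0, 17.4 and 16.2 CPM. Gas1, a gene of growth arrest, was below them, at 33.0, 0, 5.13 and 33.0 CPM against 73.5, 59.5, 20.4 and 60.2 CPM.

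**Figure D4:**
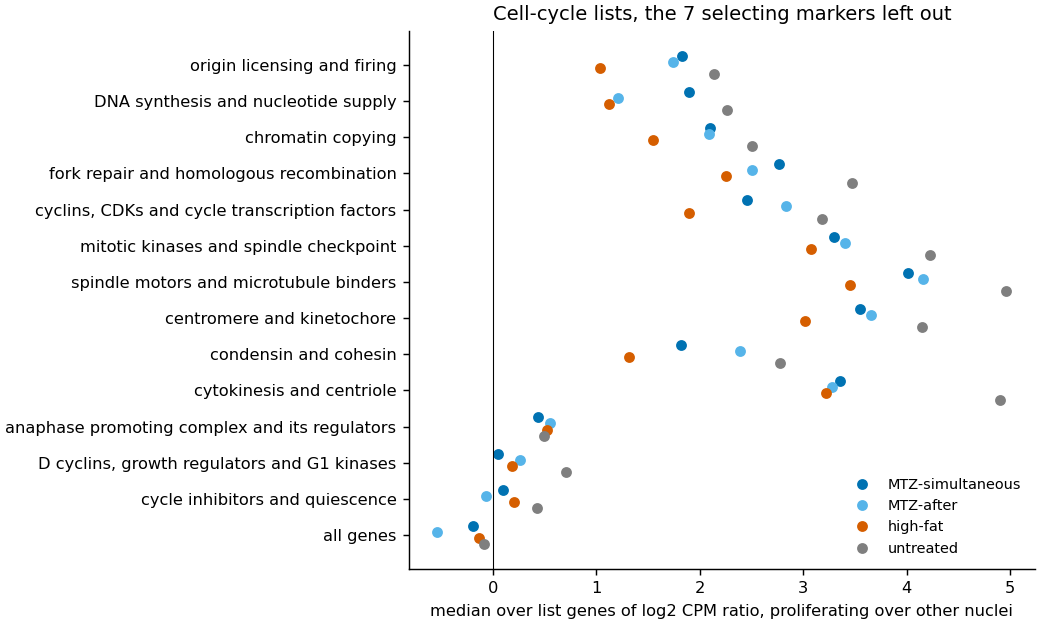
Median over the genes of each list of the log2 CPM ratio of proliferating over other nuclei, with 1 point per library. Spindle genes lie furthest to the right, at 3.45 to 4.96, while the anaphase promoting complex, D cyclin and inhibitor lists lie at -0.07 to 0.71 and all genes at -0.53 to -0.09.

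Genes outside the lists were ranked by their smallest interval bound over the 4 libraries. Among the 20 genes ranked highest, 15 were markers or genes of the lists, and among the 50 ranked highest, 38 were. The highest outside them was Lockd, a noncoding RNA transcribed downstream of Cdkn1b. Lockd stood at 180 CPM in MTZ-simultaneous, 196 in MTZ-after, 226 in high-fat and 216 in untreated proliferating nuclei, against 7.51, 7.35, 11.8 and 2.94 CPM in other nuclei. It had a UMI in 48.8% of proliferating nuclei, more than Cenpf or Aspm, and in 1.11% of other nuclei. Neil3, a DNA glycosylase, stood at 172, 172, 149 and 205 CPM against 4.62, 5.41, 8.66 and 1.77 CPM and had a UMI in 42.5% of proliferating nuclei. Troap, a spindle protein, stood at 27.5, 73.6, 22.2 and 31.6 CPM, and Cdca2, which recruits a phosphatase to chromatin, at 77.1, 98.1, 66.6 and 86.5 CPM. Efcab11, stood at 95.4, 98.1, 90.5 and 150 CPM against 5.47, 6.65, 9.14 and 3.97 CPM. The others of the 10 highest were D030068K23Rik, Prr11, Ankle1, Gm47207 and Spag5, the last a kinetochore protein that stood at 45.9, 110, 29.0 and 67.3 CPM. The table does not state strand, so reads of Lockd and an overlapping gene could not be separated.

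The balance of replication and mitosis differed between libraries. Summed over 63 genes of the mitotic lists and 47 genes of the replication lists, the ratio of mitotic to replication counts was 1.78 in MTZ-simultaneous proliferating nuclei (1.66 to 1.90), 2.30 in MTZ-after (1.92 to 2.77), 2.90 in high-fat (2.70 to 3.13) and 2.54 in untreated (2.40 to 2.68). The other nuclei had ratios of 0.812, 0.916, 1.00 and 0.853. MTZ-simultaneous was thus lowest and high-fat highest among proliferating nuclei. The intervals of these 2 libraries did not overlap, while those of high-fat and MTZ-after did. The replication genes stood at 2516 CPM in MTZ-simultaneous, 2121 in MTZ-after, 1621 in high-fat and 2505 in untreated, and the mitotic genes at 4469, 4880, 4706 and 6351 CPM. All 7 selecting markers serve mitosis or peak late in the cycle, so the rule favours nuclei late in the cycle in every library. UMIs of both kinds of gene were found in 97 of 104, 23 of 29, 123 of 139 and 96 of 97 proliferating nuclei.

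Nuclei were clustered without the cell-cycle genes, and clusters were named after the markers they resembled, so that macrophage-like means a cluster with macrophage markers. The names were rebuilt here and are not the authors'. Proliferating nuclei were spread over 15 of 16 clusters. Macrophage-like clusters held 113 of the 369, 91 were in unnamed clusters 2 and 11, 52 were fibroblast-like, 31 endothelial-like, 26 smooth-muscle-like, 25 brown-adipocyte-like, 10 adipocyte-like, 8 mesothelial-like and 5 lymphatic-endothelial-like. A further 8 were in cluster 7, which had adrenal and chromaffin markers but was led by neuronal genes such as Syt1 and Nrg3 and is called by its number. Cluster 14, brown-adipocyte-like nuclei with a median of 4856 UMIs, held 0 proliferating nuclei of 1502, which allows up to 0.245% by the exact interval. Of its nuclei, 1407 were untreated and 52 MTZ-after, and cluster 3, also brown-adipocyte-like, held 25 of 10777. Adipocyte-like nuclei, with a median of 864 UMIs, held 0.0749%, and in MTZ-after 1 of 4845. These values set no background rate for MTZ-after. Whether low shares, that of the whole MTZ-after library (0.103%) included, stand above a background was not tested.

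Pooled over libraries, the highest shares were in clusters 12 and 2. Cluster 12, fibroblast-like and led by Cemip, a hyaluronidase, with Mmp13, a collagenase, and Col1a1, a collagen chain, held 19 proliferating nuclei of 1234 (1.54%, 0.929 to 2.39%). Cluster 2, unnamed because it mixed genes of T cells (Themis) and of monocytes (Adgre4, Ccr2, Il1b), held 58 of 4696 (1.24%, 0.939 to 1.59%). By library, cluster 2 held 21 in MTZ-simultaneous (1.11%), 6 in MTZ-after (0.601%), 7 in high-fat (1.37%) and 24 in untreated (1.85%). Cluster 12 held 6 of 183 (3.28%), 1 of 193 (0.518%), 9 of 783 (1.15%) and 3 of 75 (4.00%). The order of clusters differed by library: cluster 2 was above cluster 12 in MTZ-after and high-fat, and cluster 5 (0.769%) was above both in MTZ-after. Cluster 11, unnamed and led by Ccdc60, Nfasc and Ddah1, held 31 of its 33 proliferating nuclei in high-fat, the library that also held most of its nuclei, 8155 of 9634. Clusters with these genes among their leading ones were named endothelial with another clustering seed and with the cycle genes kept. The endothelial-like class of high-fat then held 31 proliferating nuclei of 8283 and 34 of 8067, against 5 of 1103 in these clusters.

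**Figure D5:**
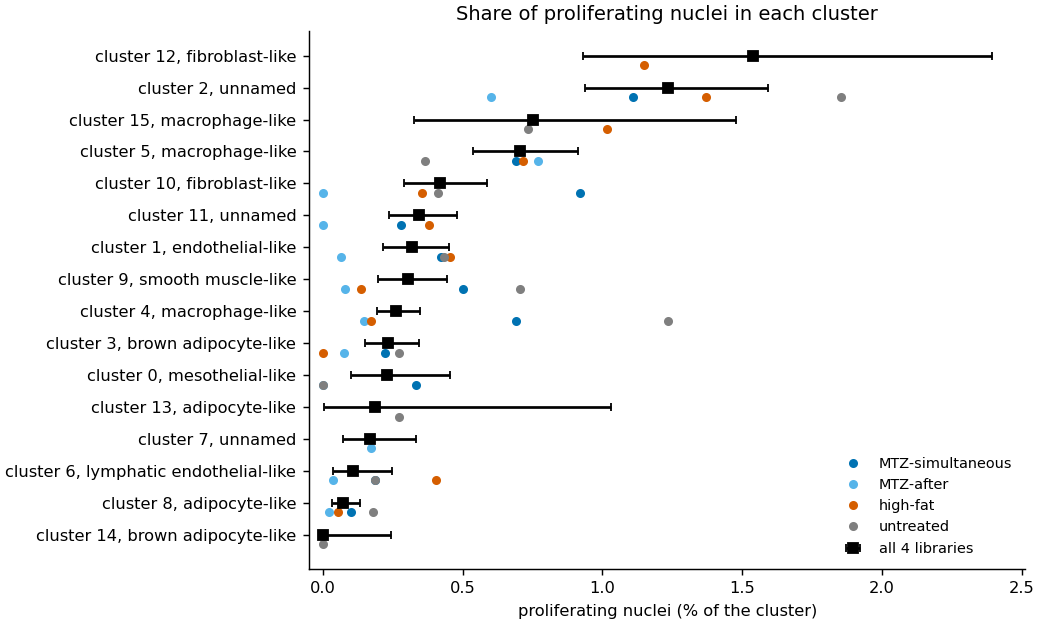
Share of proliferating nuclei in each cluster (%), over all 4 libraries (squares with exact 95% counting intervals) and in each library where the cluster held at least 200 nuclei (coloured points). Clusters 12 and 2 lie highest, at 1.54 and 1.24%, and cluster 14 has 0 of 1502.

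The classes of the proliferating nuclei differed between libraries. Macrophage-like nuclei were 12.5% of them in MTZ-simultaneous (13), 20.7% in MTZ-after (6), 57.5% in high-fat (80) and 14.4% in untreated (14). Fibroblast-like nuclei were 25% (26), 3.45% (1), 8.63% (12) and 13.4% (13). Brown-adipocyte-like nuclei were 3 of 104 in MTZ-simultaneous, 1 of 29 in MTZ-after, 0 of 139 in high-fat and 21 of 97 in untreated. All 8 mesothelial-like ones were in MTZ-simultaneous, which held 2412 of 3475 mesothelial-like nuclei, and all 8 of cluster 7 in MTZ-after, which held 4688 of its 4753 nuclei. The libraries themselves differed in makeup: macrophage-like nuclei numbered 21414 in high-fat against 1437 in untreated and brown-adipocyte-like nuclei 351 against 9171.

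Within a class the order changed. Of macrophage-like nuclei, 0.660% were proliferating in MTZ-simultaneous, 0.234% in MTZ-after, 0.374% in high-fat and 0.974% in untreated. The high-fat share was 0.384 times the untreated share (0.216 to 0.733), the MTZ-after share 0.626 times the high-fat share (0.223 to 1.42) and the MTZ-simultaneous share 1.77 times the high-fat share (0.902 to 3.20). Different clusters held most of the class's members: cluster 5 held 50 of 80 in high-fat, and cluster 4 held 10 of 13 in MTZ-simultaneous and 11 of 14 in untreated. Cluster 5 was named on 3 enriched macrophage markers, the minimum for a name, against 11 for cluster 4, so its name is less firm. Within cluster 4 the shares were 0.691, 0.145, 0.173 and 1.24%, and within cluster 5 they were 0.691, 0.769, 0.717 and 0.365%. The median macrophage-like nucleus had 1479 UMIs in MTZ-simultaneous, 848 in MTZ-after, 1041 in high-fat and 2187 in untreated, in the same order as the shares. Thinned to 500 UMIs, at least 2 markers were left in 0.203, 0.0780, 0.238 and 0.696% of macrophage-like nuclei, on 4, 2, 51 and 10 nuclei, and the ratio of MTZ-simultaneous to high-fat was then 0.853.

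Of fibroblast-like nuclei, 1.10% were proliferating in MTZ-simultaneous, 0.0382% in MTZ-after (1 of 2617), 0.738% in high-fat and 0.520% in untreated. The MTZ-after share was 0.0518 times the high-fat share (0.00121 to 0.350), and the MTZ-simultaneous share 1.49 times (0.728 to 3.25) and, at equal depth, 0.613 times. Of endothelial-like nuclei, 0.421% were proliferating in MTZ-simultaneous, 0.0662% in MTZ-after (2 of 3022), 0.453% in high-fat and 0.433% in untreated, the MTZ-after share being 0.146 times the high-fat share (0.0139 to 0.892). Of smooth-muscle-like nuclei, 0.502% were proliferating in MTZ-simultaneous (17), 0.0796% in MTZ-after (3), 0.137% in high-fat (1) and 0.706% in untreated (5). In these clusters the MTZ-after share was thus below the high-fat share beyond counting error in fibroblast-like and endothelial-like nuclei. With another clustering seed the fibroblast-like ratio was 0 (0 to 2.46), on 0 of 1495 against 2 of 690 nuclei, an interval that included 1. The 3 MTZ-after shares rest on 1, 2 and 3 nuclei, and whether they stand above a background was not tested. For smooth-muscle-like nuclei the ratio of MTZ-after to high-fat was 0.580 (0.0466 to 30.5) in these clusters and 0.208 (0.0502 to 0.818) with another clustering seed, which put 6 proliferating nuclei of high-fat in the class. For endothelial-like nuclei, high-fat over untreated was 1.05 (0.289 to 3.19) in these clusters and 2.25 (1.02 to 5.09) at Leiden resolution 2. It was 0.908 (0.462 to 1.89) with another clustering seed and 0.792 (0.407 to 1.635) with the cycle genes kept. At resolution 2, MTZ-simultaneous over high-fat was 0.447 (0.198 to 0.991) in this class, against 0.929 in these clusters. MTZ-after nuclei were also the shallowest of the 4 libraries in each of these classes, with medians of 783 to 914 UMIs. Thinned to 500 UMIs, at least 2 markers were left in 8, 2, 9 and 7 fibroblast-like nuclei and in 4, 0, 0 and 6 endothelial-like nuclei of MTZ-simultaneous, MTZ-after, high-fat and untreated.

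The 80 macrophage-like proliferating nuclei of high-fat were within 2-fold of other macrophage-like nuclei in genes of foam cells, the lipid-laden macrophages of plaques. Set against 21334 other macrophage-like nuclei of the same library, the 20 genes of the foam-cell and lipid-handling list had ratios between 0.571 (Plin2) and 1.19 (St18), with a median log2 ratio of -0.11, where all genes had -0.12. The groups differ in clusters: cluster 5 held 50 of the 80 proliferating nuclei but 6973 of the 21414 macrophage-like nuclei, and cluster 4 held 13850. Cluster 5 was named on 3 enriched macrophage markers, the minimum, and cluster 4 on 11. The first leading gene of cluster 5 was Cemip, which also led the fibroblast-like cluster 12. Spp1, the secreted protein osteopontin, stood at 4747 CPM in proliferating and 4200 CPM in other macrophage-like nuclei, 1.13-fold (1.08 to 1.18). St18, a transcription factor among the leading genes of clusters 4 and 5, stood at 691 against 581 CPM, 1.19-fold (1.06 to 1.33), and Msr1, a scavenger receptor, at 264 against 246 CPM. Mmp12, macrophage elastase, stood at 743 against 896 CPM, 0.829-fold (0.739 to 0.926), and Fabp5, a fatty acid carrier, at 200.5 against 216 CPM.

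Some genes of lipid uptake and storage were lower by less than 2-fold. Cd36, a receptor for fatty acids and oxidised lipoproteins, stood at 342 CPM in proliferating and 582 CPM in other macrophage-like nuclei of high-fat, 0.588-fold (0.496 to 0.692). Plin2, the coat protein of lipid droplets, stood at 160 against 281 CPM, 0.571-fold (0.443 to 0.725), and Lpl, lipoprotein lipase, at 552 against 702 CPM, 0.786-fold (0.688 to 0.894). Cd36, Plin2 and Lpl were singled out after their values were seen. The other libraries, with 13, 6 and 14 macrophage-like proliferating nuclei in MTZ-simultaneous, MTZ-after and untreated, went other ways for some of these genes. St18 had ratios of 0.952, 1.08 and 0.418 there, Spp1 0.933, 0.122 and 0.704, Lpl 1.25, 0.512 and 0.574, and Plin2 0.453, 0.494 and 1.19. Cd36 was below 1 in all of them, at 0.478, 0.538 and 0.767. The medians of the foam-cell list were -0.76, -1.02 and -0.32. Among growth signals, Csf2ra and Csf2rb, the receptor chains for GM-CSF, stood at 61.3 against 90.6 CPM and 84.9 against 92.5 CPM. Pparg, the lipid-sensing nuclear receptor, stood at 380 against 560 CPM, 0.678-fold (0.577 to 0.791), and Csf1r, the M-CSF receptor, at 37.7 against 36.0 CPM. Resident macrophage genes Mrc1 and F13a1 stood at 101 against 147 CPM and 101 against 101 CPM, and Gas6, a ligand of TAM receptors, at 75.5 against 96.3 CPM. The cell-cycle lists were higher here as well, with a spindle median of 2.77, against 3.45 over all nuclei of high-fat.

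Between libraries, the genes with the largest differences in proliferating nuclei included none of the cell-cycle lists. For high-fat over untreated, 72 of 2888 genes with enough counts were called higher (2.49%) and 205 of 3655 lower (5.61%). Of these, 34 and 140 were also called in the same direction in the other nuclei of the same libraries. For MTZ-after over high-fat, 11 of 153 were higher (7.19%) and 270 of 2888 lower (9.35%), of which 4 and 47 were also called in the other nuclei. For MTZ-simultaneous over high-fat, 114 of 2820 were higher (4.04%) and 73 of 2888 lower (2.53%), of which 38 and 26 were also called in the other nuclei. Over all genes with enough counts in the other nuclei, 1183 of 16586 were called higher and 1219 lower for high-fat over untreated. For MTZ-after over high-fat these numbers were 2308 and 422 of 16652. For MTZ-simultaneous over high-fat they were 1319 and 401 of 16304. The high-fat library is shared by all 3 comparisons. The MTZ-after sum holds 81551 UMIs, against 585377 in high-fat, and 162 of its 270 lower genes also had a counting interval that left out 1.

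High-fat proliferating nuclei had more transcripts of matrix and macrophage genes than untreated ones and fewer of brown fat. Col1a1, a chain of type I collagen, stood at 806 CPM in high-fat and 158 CPM in untreated, 5.11-fold (4.16 to 6.32), and Cemip at 125 and 11.0 CPM. Cd5l, a macrophage survival protein, stood at 285 CPM in high-fat and 46.7 CPM in untreated, and Iigp1, an interferon-induced GTPase, at 161 and 19.2 CPM. Frmd5, a cytoskeletal adaptor, stood at 859 and 162 CPM. On the lower side, Elovl6, a fatty acid elongase, stood at 29.0 CPM in high-fat and 302 CPM in untreated, Ppargc1a, a coactivator of mitochondrial genes, at 22.2 and 234 CPM, Esrrg, a nuclear receptor of brown fat, at 82.0 and 485 CPM, and Ppp1r3b, a glycogen-targeting subunit, at 12.0 and 113 CPM. The other nuclei of the same libraries differed in the same direction by 2-fold or more for these 9 genes, and 0 of 139 proliferating nuclei were brown-adipocyte-like in high-fat, against 21 of 97 in untreated. The last of the 10 named genes, Adgrl3, an adhesion receptor, had 59 of its 83 untreated counts in 1 nucleus, and its ratio was 0.0899 with that nucleus and 0.302 without it.

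MTZ-after nuclei, proliferating or not, had more transcripts of neuronal genes than high-fat ones. Cntnap2, an axonal adhesion protein, stood at 1189 CPM in MTZ-after, on 4 of 29 nuclei, and 3.42 CPM in high-fat, on 2 counts, a ratio of 348 (93.8 to 2915). Kcnip4, a potassium channel subunit, stood at 1643 and 8.54 CPM, on 6 nuclei, and Syt1, a synaptic calcium sensor, at 687 and 6.83 CPM, on 4 nuclei. Rbfox1, a splicing factor, was found in 13 nuclei, at 993 CPM in MTZ-after and 35.9 CPM in high-fat, and Fgf14, a regulator of sodium channels, in 12, at 1386 and 174 CPM. In the other nuclei the ratios of MTZ-after to high-fat were 22.2 for Cntnap2, 11.2 for Kcnip4, 29.9 for Syt1, 6.48 for Rbfox1 and 1.57 for Fgf14. A nucleus of 5346 UMIs held 47.0% of the Kcnip4, 50% of the Syt1, 40.7% of the Rbfox1 and 38.0% of the Fgf14 counts, and without it the ratios in proliferating nuclei were 109, 53.8, 17.6 and 5.27 instead of 192, 101, 27.7 and 7.95. Cntnap2 had a ratio of 220 without its top nucleus. The summed level of 7 neuron markers was 1091 CPM in proliferating and 344 CPM in other nuclei of MTZ-after, and 8 of its 29 proliferating nuclei were in cluster 7, which lay almost wholly in this library. Whether tissue beside the aorta was taken with it was not tested. Lower in MTZ-after were Spp1 at 490.5 CPM against 3739 CPM in high-fat, 0.131-fold (0.0934 to 0.179), Gpnmb, a lysosomal membrane protein of foam cells, at 172 against 1109 CPM, and the lysosomal proteases Ctsl at 135 against 770 CPM and Ctsd at 98.1 against 612 CPM. These 4 genes were also lower in the other nuclei, by ratios of 0.336 to 0.399.

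MTZ-simultaneous nuclei, proliferating or not, were lower than high-fat ones in Spp1 and Ctsl. Spp1 stood at 852 CPM in MTZ-simultaneous and 3739 CPM in high-fat, 0.228-fold (0.206 to 0.252), and Ctsl at 180 and 770 CPM. In the other nuclei the ratios were 0.226 for Spp1 and 0.335 for Ctsl. Edn1, the vasoconstrictor endothelin 1, stood at 47.7 and 227 CPM, Iigp1 at 33.0 and 161 CPM, and Fam155a, a subunit of a sodium leak channel, at 7.34 and 87.1 CPM. Of the genes higher in MTZ-simultaneous, Il1rapl1, a synaptic adhesion receptor that also led the mesothelial-like cluster, had 84 counts against 1 in high-fat, a ratio of 90.2 (15.8 to 3606), and was found in 35 of 104 nuclei. Rbfox1 stood at 286 CPM in MTZ-simultaneous and 35.9 CPM in high-fat and was found in 43 nuclei. Fgf7, a fibroblast growth factor, stood at 156 and 6.83 CPM, with 48.2% of its counts in 1 nucleus and a ratio of 12.5 without it. Single nuclei carried the other 2: all 176 counts of Hspa1a, a heat shock protein whose reads can be split with its near copy Hspa1b, lay in 1 nucleus and 0 remained without it, and 52 of 58 counts of Rspo2, a Wnt agonist, lay in 1 nucleus, without which the ratio was 1.16.

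Over the whole foam-cell list, 4 of 19 genes with enough counts were called higher and 1 of 18 lower in high-fat over untreated. Over all genes 2.49 and 5.61% were called, and the median log2 ratio of the list was 0.69, where all genes had -0.04. For MTZ-after over high-fat, 0 of 1 were higher and 9 of 19 lower, against 7.19 and 9.35% of all genes. The median was -1.005 against -0.09 for all genes. For MTZ-simultaneous over high-fat, 0 of 17 were higher and 8 of 19 lower, against 4.04 and 2.53% of all genes. The median was -0.93 against 0.05 for all genes. These values stand beside the share of macrophage-like nuclei among proliferating nuclei, which was 12.5% in MTZ-simultaneous, 20.7% in MTZ-after, 57.5% in high-fat and 14.4% in untreated, and its part in them was not tested. With macrophage-like nuclei alone the comparison could not be made, since only high-fat held 50 or more of them. For MTZ-simultaneous over high-fat the largest medians of the cell-cycle lists were in DNA synthesis, 0.89, chromatin copying, 0.70, and origin licensing, 0.60, while spindle genes had -0.17. For high-fat over untreated, 12 of the 13 lists had a median below 0, between -0.84 for cyclins and CDKs and -0.34 for the anaphase promoting complex, and D cyclins had 0.10.

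The summed levels of fat, erythroid and B cell markers were lower in proliferating nuclei, and those of T or NK cell markers higher. The summed level of 9 adipocyte markers was 0.478 times that of other nuclei in MTZ-simultaneous, 0.577 in MTZ-after, 0.594 in high-fat and 0.492 in untreated, and that of 9 brown adipocyte markers 0.449, 0.640, 0.573 and 0.434. The 13 T or NK cell markers were higher, at 1.76, 1.45, 1.35 and 1.80 times, with an interval that included 1 in MTZ-after. Macrophage markers were at 1.12, 0.900, 0.960 and 1.38 times, with intervals above 1 in MTZ-simultaneous and untreated. Erythroid markers were at 0.446, 0.467, 0.370 and 0.552 times, and B cell markers at 0.912, 0.657, 0.829 and 0.6004 times. In other nuclei of untreated the 9 B cell markers summed to 3621 CPM, though 12.9% of those nuclei held at least 2 of them. Which of these markers carried the sum was not tested, so it is not read as a level of B cells. At least 2 B cell markers were found in 26.0, 20.7, 28.8 and 18.6% of proliferating nuclei and in 18.2, 11.15, 17.6 and 12.9% of other nuclei. The other nuclei were shallower, so these percentages cannot show whether such nuclei were more or less frequent. Endothelial markers were at 0.7735, 0.924, 0.9335 and 0.861 times, with an interval that included 1 in MTZ-after. Fibroblast markers were at 1.43, 2.94, 1.23 and 0.942 times. At least 2 markers of several lineages were found in 92.3, 79.3, 94.2 and 91.8% of proliferating nuclei and in 90.1, 74.6, 88.4 and 84.6% of other nuclei, so a single lineage could not be read from single nuclei. Of the proliferating nuclei, 3, 0, 6 and 3 were among the nuclei with the highest doublet scores of their library. These were 2.885, 0, 4.32 and 3.09% of proliferating nuclei, against 7.38, 7.47, 7.67 and 7.03% of other nuclei.

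Car1, the gene of the knock-in, stood at 121 CPM in MTZ-simultaneous (93.7 to 154), 0 CPM in MTZ-after (up to 45.2), 106 CPM in high-fat (81.2 to 136) and 108 CPM in untreated (85.9 to 135). In the other nuclei of the same libraries it stood at 151, 63.1, 86.2 and 128 CPM, a level inside the interval of the proliferating nuclei in all libraries but MTZ-after. Among macrophage-like nuclei of high-fat, Car1 stood at 111 CPM in proliferating and 78.5 CPM in other nuclei. Over the 15 carbonic anhydrases the median log2 ratio of proliferating over other nuclei was -0.32 in MTZ-simultaneous, -1.16 in MTZ-after, -0.25 in high-fat and -0.50 in untreated, and 0 of 3, 0 of 0, 0 of 3 and 0 of 3 genes with enough counts were called higher.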

How the data were processed

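Nuclei of aorta from 4 libraries, 1 per group, were counted with a 10x 3' v3.1 kit. The deposited matrices hold whole-number UMI counts per gene and barcode, made by the authors with Cell Ranger 7.0.1, per the file headers. STAR and the mm10 build are named in the submitters' processing notes. Whether intronic reads were counted is not given in the sources used here. Nuclei with at least 300 genes and at most 10% mitochondrial UMIs were kept, and groups came from the labels. Counts were summed over proliferating and other nuclei of each library and scaled to CPM (Python 3.11.15, numpy 2.4.6, scipy 1.17.1, pandas 2.3.3). Shares carry exact Clopper-Pearson intervals, CPM exact Poisson intervals and ratios exact conditional intervals, at 95%. With 1 library per group no p-value was computed. Clusters were made with scanpy 1.11.5 (2000 variable genes, 30 principal components, 20 neighbours, Leiden resolution 1) without the cell-cycle genes. The automatic doublet caller marked 0% of nuclei and so did not work; doublets were kept, and an alternative removed the highest 8% of scores. Named genes were, in each list, the 3 with the largest smallest lower interval bound over the libraries and the lowest, the 10 highest outside the lists, and 5 in each direction of each comparison between libraries, of which 1 is not reported here. The members and lists were chosen with earlier results of these data known. Alternatives changed the number of markers, the filter, thinning to 500 UMIs, the clustering, the pseudocount, the counts minimum and the scaling (TMM, edgeR 4.0.16 in R 4.3.3). The call rule was tested on simulated data.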

Additional observations from a re-analysis of the deposited data

Results flagged for a closer look

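Some genes lay on opposite sides of a ratio of 1 in proliferating and in other nuclei of the same pair of libraries, with counting intervals that left out 1. These differences were not tested, since each group is 1 library. For high-fat over untreated, Mki67 had a ratio of 0.698 in proliferating nuclei and 4.56 in other nuclei. Knl1 had 0.788 in proliferating and 4.83 in other nuclei, and Anln had 0.750 and 2.66. For MTZ-after over high-fat, Mki67 had 1.99 in proliferating and 0.574 in other nuclei, and Anln had 1.84 and 0.817. Mki67, Knl1 and Anln are among the genes that chose the nuclei. For MTZ-simultaneous over high-fat, Hspa1a had 47.3 in proliferating and 0.492 in other nuclei, and Rspo2 had 10.4 and 0.446, each with most counts in 1 nucleus. Fam155a had 0.0843 in proliferating and 1.47 in other nuclei.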

How the results depend on the processing

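Of the values that answer a comparison, 115 stayed in their range under the alternatives and 30 moved. Of the values for list medians, 122 stayed, 131 moved and 7 changed sign. Of those for named genes, 160 stayed, 17 moved and 1 went to the other side of 1. The cause was not tested. The share ratio of high-fat over untreated was 1.61 with at least 2 markers, 0.490 with at least 4, 0.567 without surrounding tissue and 0.631 without Cenpf. The ratio of MTZ-after over high-fat was 0.498 at equal depth with at least 2 markers, and that of MTZ-simultaneous over high-fat was 2.12 with at least 4. In macrophage-like nuclei, MTZ-simultaneous over high-fat was 3.20 at Leiden resolution 2 and 0.853 at equal depth, and in fibroblast-like nuclei 3.93 with another clustering seed and 0.613 at equal depth. With minimums of 10, 100 and no counts, genes called higher and lower for high-fat over untreated were 453 and 909, 30 and 86, 2625 and 3412. For MTZ-after over high-fat they were 217 and 1594, 4 and 85, 2976 and 5959, and 162 of the lower calls had an interval that left out 1. For MTZ-simultaneous over high-fat they were 788 and 506, 34 and 32, 3646 and 2697. In MTZ-after, 6 lists stayed above 1 at equal depth, where licensing (-2.71), DNA synthesis (-1.79), mitotic kinases (-1.28) and the anaphase promoting complex (-1.32) turned below 0. With macrophage-like nuclei only, the medians of licensing (-2.73) and DNA synthesis (-2.22) in MTZ-after and D cyclins in MTZ-simultaneous (-0.0633) turned below 0. Those of MTZ-after rest on 6 nuclei with 6 and 23 counts of these 2 lists. Summed over the list, the level there was still 2.835 times that of other macrophage-like nuclei for licensing and 4.20 times for DNA synthesis. For D cyclins in MTZ-simultaneous it was 0.931 times. Hspa1a went to a ratio of 0 without its top nucleus. TMM scaling shifted log2 ratios of MTZ-after over high-fat by -0.19. Gene counts with macrophage-like nuclei alone were not run, and another seed left 0 fibroblast-like members in MTZ-after. No paired analysis was possible because each group is 1 library. The 29 nuclei of MTZ-after limit every value that uses them.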
